A study of Mus musculus with 16 samples.

Results

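The genes described here are 10 that mark macrophages or take up particles and modified lipoproteins: Cd68, Emr1 (now Adgre1), Itgam, Lyz1, Lyz2, Msr1, Marco, Cd36, Mrc1 and Fcgr1. They were chosen by name, as every non-control probe whose gene name on the array equals 1 of these symbols, which gave 15 of 55681 probes and 10 of the 22372 genes that the array's probes could be tied to. A gene was tested where some condition had 1 of its probes well above background on each of its 4 arrays, which held for 7 of the 10 genes and for 15877 genes in all. Cd36, Mrc1 and Marco did not and are given as levels only. The 15877 are gene names, where a probe without a RefSeq match kept the array's own name.

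Macrophages recognise and engulf material through receptors that differ in what they bind. Scavenger receptors (Msr1, Marco, Cd36) take up oxidised lipoproteins and bacterial surfaces, the mannose receptor Mrc1 binds sugars, and the Fc receptor Fcgr1 binds antibody-coated targets. Emr1 encodes an adhesion receptor whose protein is the classical surface antigen of mouse macrophages, Itgam the CD11b chain of a complement-binding integrin, Cd68 a lysosomal membrane protein, and the Lyz genes secreted enzymes that cut bacterial cell walls. These products are widely used to recognise macrophages, and lipopolysaccharide (LPS), a bacterial surface lipid, is the classical stimulus of such cells.

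RNA came from RAW 264.7 cells, a mouse macrophage-like tumour line, so a single line stands for the macrophage here. All wells were kept in low-serum medium and received the solvent DMSO, alone or carrying cordycepin, an adenosine analogue that inhibits polyadenylation. The 4 conditions were DMSO for 120 min (called DMSO), 20 µM cordycepin for 120 min (cordycepin), DMSO with 1 µg/ml LPS during the last 60 min (LPS+DMSO), and 20 µM cordycepin with the same LPS (LPS+cordycepin). Each condition had 4 biological replicates, each collected on its own day, and each of the 16 samples was hybridised to its own 1-colour array. The comparisons ask what LPS does to these genes, what cordycepin does to them with and without LPS, and whether the LPS response differs with cordycepin (the interaction).

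The macrophage label was checked against further markers: Csf1r, Ptprc, Fcer1g, Tyrobp and Spi1 were each well above background on all 16 arrays. Of the markers of cells that should be absent, 0 of 8 fibroblast and 0 of 5 epithelial genes were well above background on every array. Markers of other cell types did appear on every array, 2 of 5 for endothelial cells (Kdr and Vwf), 3 of 7 for T cells (Cd3e, Cd4 and Lck), 3 of 9 for neutrophils (S100a8, Elane and Csf3r), 1 of 6 for B cells (Cd22) and 1 of 6 for dendritic cells (Itgax). Between 37.1% and 51.2% of spots were well above background on an array. The 8 arrays of replicates 1 and 2 lay on 1 slide (37.1% to 43.9% of spots) and the 8 arrays of replicates 3 and 4 on the other (45.8% to 51.2%), with all 4 conditions on both slides. LPS raised Tnf, the inflammatory cytokine used here as the check of the stimulus, by 6.71 on the log2 scale (SE 0.12). Levels below are log2 intensities scaled to each array's 75th percentile, and since every probe has its own brightness, levels of different probes are not compared.

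The sequences that carry the results are shown first. Fcgr1 was measured by 1 probe and Emr1 by 2, and the first 30 of their 60 bases are given 5′ to 3′, in the sense of the transcript. The probe of Fcgr1 lies at chr3:96086839-96086898 of mouse build mm9, minus strand, and those of Emr1 at chr17:57622868-57622927 and chr17:57620350-57620409, plus strand.
Fcgr1 probe A_55_P2008740: ccacatgtgcagggcatgcagacacagaca
Emr1 probe A_55_P2144386: ggtgttccagaaattctcatttaataccca
Emr1 probe A_55_P2018934: atgaatataagaaactcctcaccaggaaga
None of these 3 probes shared a run of 16 bases with any other probe on the array. Of the last 20 bases of the Fcgr1 probe, 14 are A.

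Itgam was measured by 3 probes that differ in kind, shown because its result depends on which probe is read. They lie at chr7:135261755-135261814, chr7:135260275-135260334 and chr7:135212140-135212199 of mm9, plus strand.
Itgam probe A_55_P1977934: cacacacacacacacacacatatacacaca
Itgam probe A_55_P1977929: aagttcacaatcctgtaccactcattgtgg
Itgam probe A_55_P1977926: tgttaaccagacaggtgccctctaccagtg
The first of them, which was the brightest and by rule stood for the gene, opens with 20 bases that alternate C and A, and it shared a run of 16 bases with 39 probes of other genes. The other two shared no such run with any probe.

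The promoter of Fcgr1 is shown because this gene had the largest response to LPS among the 7 tested. RefSeq sequences (build GRCm38.p6) were at hand for 8 of the 10 genes, all but Adgre1 and Msr1. The 250 bases before the Fcgr1 start, chr3:96293970-96294219, minus strand, are given with matches in capitals.
Fcgr1 upstream: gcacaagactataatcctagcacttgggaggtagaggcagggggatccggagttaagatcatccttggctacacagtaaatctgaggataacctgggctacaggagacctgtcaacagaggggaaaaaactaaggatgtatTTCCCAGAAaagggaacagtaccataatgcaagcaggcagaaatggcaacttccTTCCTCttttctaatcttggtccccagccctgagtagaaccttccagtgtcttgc
The first match, 109 to 101 bases before the start, is TTCNNNGAA, the core that STAT factors bind after interferon. It reads the same on both strands in these letters. The second, 55 to 50 bases before the start, is GAGGAA on the other strand, the core bound by the myeloid factor PU.1 (Spi1), and the 2 matches do not overlap. Over the same 250 bases, TTCNNNGAA stood in 1 of the 8 promoters (Fcgr1) and in 7.02% of all 32851 promoters. GAGGAA on either strand stood in 5 of the 8 (Cd68, Fcgr1, Itgam, Marco and Mrc1) and in 23.3% of all.

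Lyz1 and Lyz2 are neighbouring copies, known as the Paneth cell and the macrophage lysozyme, with starts 10596 bases apart on chromosome 10. The last 100 bases before each start are shown to let the pair be compared, Lyz1 at chr10:117292869-117292968 and Lyz2 at chr10:117282273-117282372, both GRCm38.p6, minus strand, with the bases that differ in capitals.
Lyz1 upstream: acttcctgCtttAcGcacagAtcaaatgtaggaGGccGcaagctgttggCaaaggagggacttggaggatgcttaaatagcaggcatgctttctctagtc
Lyz2 upstream: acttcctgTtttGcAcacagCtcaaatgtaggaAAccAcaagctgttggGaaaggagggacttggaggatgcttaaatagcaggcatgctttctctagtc
They differ at 8 of these 100 bases, and the 50 nearest the start are identical. Over all 250 upstream bases, compared without gaps, 60.8% are the same. The array's Lyz1 and Lyz2 probes share no run longer than 6 of their 60 bases. The Lyz2 probe shared a run of 16 bases with 1 probe of another gene.

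LPS lowered Fcgr1 and raised Emr1. In the main fit, without a block, the other 5 genes tested did not pass the test in any of the 5 comparisons. For LPS+cordycepin against LPS+DMSO, Itgam passed in 4 of 18 other settings, among them the replicate number as a block (limma adjusted p = 0.0078). It also passed there in 2 of 20 fits without some arrays, and Msr1 passed after LPS in 1 of 20. Passing means an adjusted p under 0.05 from limma over all 15877 genes. In LPS+DMSO against DMSO, 2 of the 7 genes tested passed, 1 higher and 1 lower, where 14.9% of all genes passed. Only Fcgr1 also changed by at least 2-fold, which 4.59% of all genes did. It fell short of 2-fold in some other fits, among them without DMSO replicate 2, without LPS+DMSO replicate 4 and on slide 1 alone. The median log2 change of the 7 genes was -0.03, beside -0.04 over all genes. In RNA from whole wells, fewer cells expressing a gene and less RNA per cell cannot be told apart.

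Without LPS, cordycepin changed none of the 7 genes by limma (0 also at an unadjusted p under 0.05), where 15.8% of all genes passed and 5.55% also reached 2-fold. On the brightest probes, the log2 changes of the 7 genes ran from -0.05 to 0.28 with a median of 0.21, beside 0.04 over all genes. In LPS+cordycepin against LPS+DMSO, 0 of 7 passed by limma (3 at an unadjusted p under 0.05), where 19.2% of all genes passed and 7.46% also reached 2-fold. In LPS+cordycepin against cordycepin, 0 of 7 passed (1 at an unadjusted p under 0.05), where 8.15% and 2.91% of all genes did. The interaction was passed by 0 of 7 (1 at an unadjusted p under 0.05), beside 0.554% and 0.365% of all genes. The counts in this paragraph are from the main fit, which does not pair arrays of the same replicate number. Under the replicate block, Itgam passed in LPS+cordycepin against LPS+DMSO (limma adjusted p = 0.0078). Fcgr1 then passed in LPS+cordycepin against cordycepin (limma adjusted p = 0.017). These comparisons share arrays, so their values are given side by side and not as independent results.

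**Figure D1:**
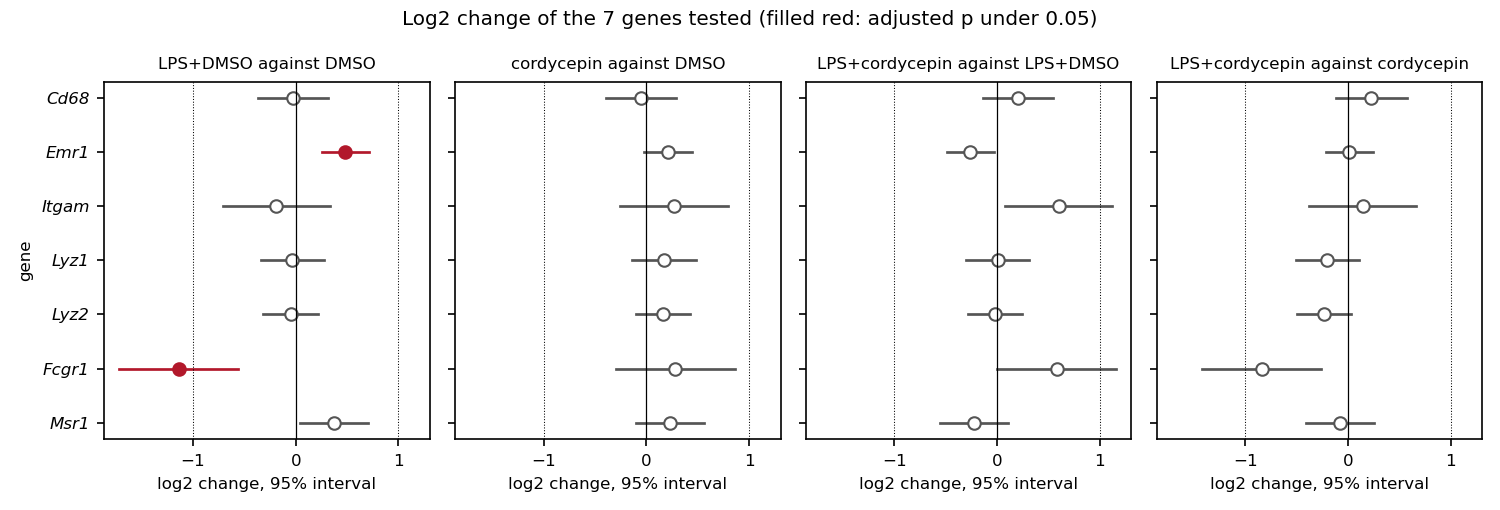
Log2 change of each of the 7 genes tested (rows) in 4 comparisons (panels), with the 95% interval from limma as a bar. Filled red points have an adjusted p under 0.05: only Emr1 (0.48) and Fcgr1 (-1.14) in LPS+DMSO against DMSO. Dotted lines mark 2-fold.

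Fcgr1, the high affinity receptor for IgG (CD64), was 2.20-fold lower after 60 min of LPS. In DMSO its log2 level was 12.11, 13.18, 11.89 and 11.61 in replicates 1 to 4 (mean 12.20 ± 0.68, SD, n = 4). In LPS+DMSO it was 11.51, 11.18, 10.97 and 10.56 (mean 11.06 ± 0.40). Every LPS+DMSO array lay below every DMSO array, and DMSO replicate 2 stood highest of all 16. The log2 change was -1.14 (SE 0.27, 95% interval -1.72 to -0.56, limma adjusted p = 0.0088), and LPS+DMSO was lower on 4 of 4 days, by 0.60 to 2.00. Within the slides, the change was -0.99 on slide 1 (adjusted p = 0.0083) and -1.30 on slide 2 (adjusted p = 0.083). Without DMSO replicate 2 it was -0.81 (adjusted p = 0.010), short of 2-fold, as it was on slide 1. Without LPS+DMSO replicate 4 it was -0.98, also short of 2-fold. Without the arrays of replicate 3 it was -1.21 and no longer passed (adjusted p = 0.057), and with only these 2 groups in the fit its adjusted p was 0.059.

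Under cordycepin, the Fcgr1 level was 12.69, 12.56, 12.32 and 12.34 (mean 12.48 ± 0.18), and 11.87, 11.74, 11.50 and 11.43 with LPS added (mean 11.64 ± 0.21). Here too the groups did not overlap, and the gap was nearly the same on each day, -0.82, -0.82, -0.82 and -0.91. The log2 change of -0.84 (SE 0.27, 95% interval -1.42 to -0.26) had a limma adjusted p of 0.077, and it passed with the replicate number as a block (adjusted p = 0.017). It was -0.86 on slide 1 (adjusted p = 0.021) and -0.82 on slide 2 (adjusted p = 0.42). Against LPS+DMSO, LPS+cordycepin was higher by 0.58 (95% interval 0.00 to 1.16, adjusted p = 0.18), on 4 of 4 days, though the groups overlapped. That value had an adjusted p of 0.059 with the replicate block and of 0.032 without DMSO replicate 2, the array that stood highest. It was 0.70 on slide 1 (adjusted p = 0.025) and 0.46 on slide 2 (adjusted p = 0.53). Without that array, cordycepin against DMSO was 0.61 (adjusted p = 0.048) in place of 0.28, and LPS+cordycepin against cordycepin had an adjusted p of 0.0073. The LPS response of Fcgr1 with cordycepin less that without it was 0.30 (95% interval -0.52 to 1.12, adjusted p = 0.95), and -0.03 without DMSO replicate 2.

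**Figure D2:**
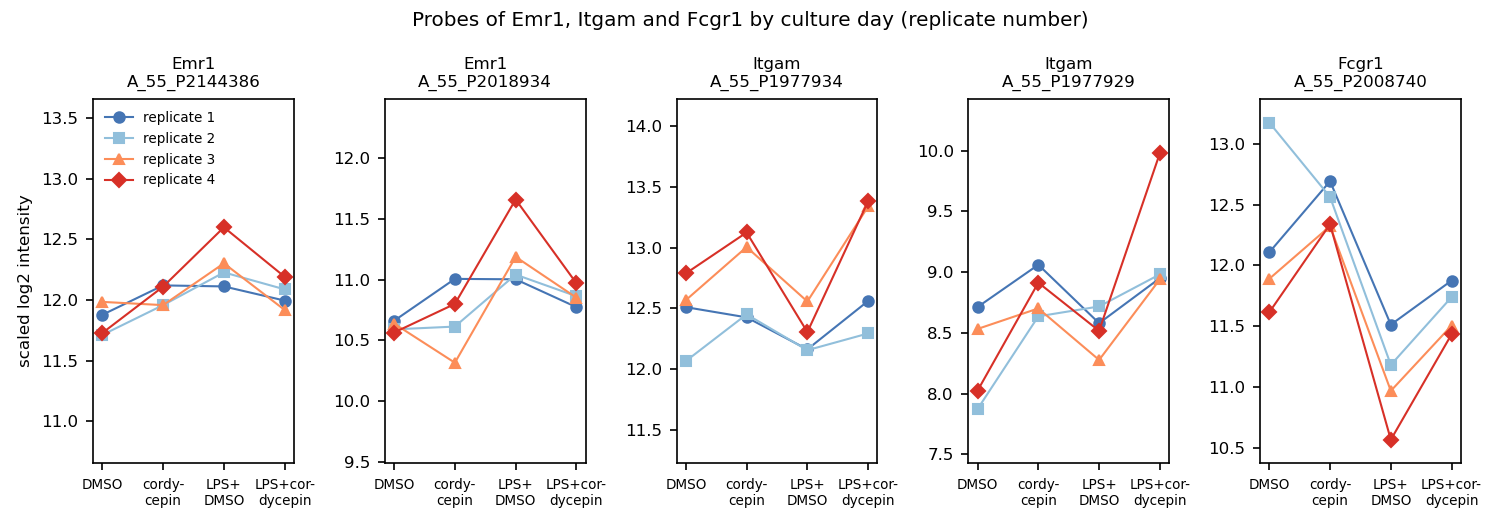
Scaled log2 intensity of 5 probes, of Emr1, Itgam and Fcgr1, in the 4 conditions, with a line for each replicate number (culture day), all panels spanning 3 log2 units. Fcgr1 is lowest in LPS+DMSO on all 4 days, and both Emr1 probes are higher in LPS+DMSO than in DMSO on all 4 days.

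Emr1, the adhesion receptor by which mouse macrophages are commonly stained, was 1.40-fold higher after LPS. The brighter probe read 11.88, 11.71, 11.98 and 11.73 in DMSO (mean 11.83 ± 0.13, SD, n = 4) and 12.11, 12.23, 12.30 and 12.60 in LPS+DMSO (mean 12.31 ± 0.21). All LPS+DMSO arrays lay above all DMSO arrays, with replicate 4 the highest. The log2 change was 0.48 (SE 0.11, 95% interval 0.25 to 0.71, limma adjusted p = 0.0056). It was 0.59 on slide 1 (adjusted p = 0.067) and 0.37 on slide 2 (adjusted p = 0.25). It did not pass without the arrays of replicate 4 (0.36, adjusted p = 0.059) or with scaling to spiked-in control probes (0.39, adjusted p = 1.00).

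The other Emr1 probe rose as well. It read 10.66, 10.59, 10.64 and 10.57 in DMSO and 11.00, 11.04, 11.19 and 11.66 in LPS+DMSO, again without overlap. Its log2 change was 0.61 (SE 0.15, limma adjusted p = 0.011 over 21597 probes), and it passed without each of the 16 arrays in turn (highest adjusted p 0.031). The brighter probe did so too (highest adjusted p 0.023). Values for single slides, without a whole replicate or with spike-in scaling are given for the brighter probe only.

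With cordycepin, the Emr1 groups with and without LPS overlapped. The brighter probe read 12.12, 11.96, 11.96 and 12.11 in cordycepin (mean 12.04 ± 0.09) and 12.00, 12.09, 11.92 and 12.19 in LPS+cordycepin (mean 12.05 ± 0.12). The highest array was in LPS+cordycepin and so was the lowest. The log2 change was 0.01 (95% interval -0.22 to 0.24, limma adjusted p = 0.98). Against LPS+DMSO, the log2 difference of LPS+cordycepin was -0.26 on the brighter probe (95% interval -0.49 to -0.03, adjusted p = 0.12) and -0.36 on the other (adjusted p = 0.12 over probes), lower on 4 of 4 days for each. On slide 1 it was -0.40 (adjusted p = 0.17) and on slide 2 -0.13 (adjusted p = 0.72) by the brighter probe. On the other probe the groups did not overlap. The difference between the LPS responses was -0.47 (95% interval -0.80 to -0.15, adjusted p = 0.27), negative on 4 of 4 days, so it did not pass over all genes.

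Itgam, which encodes the CD11b chain of the Mac-1 integrin, was higher in LPS+cordycepin than in LPS+DMSO on 4 of 4 days by 2 of its 3 probes and on 2 of 4 days by the other, and whether it passed depended on the probe and the fit. The probe with the CA run read 12.16, 12.15, 12.56 and 12.30 in LPS+DMSO (mean 12.29 ± 0.19, SD, n = 4) and 12.56, 12.29, 13.34 and 13.38 in LPS+cordycepin (mean 12.89 ± 0.55). The arrays of replicates 3 and 4 were high in LPS+cordycepin, and replicate 2 lay within the LPS+DMSO range. The log2 change of 0.60 (SE 0.25, 95% interval 0.08 to 1.12) had a limma adjusted p of 0.12, and 0.0078 with the replicate number as a block. It was 0.93 on slide 1 (adjusted p = 0.0032) and 0.27 on slide 2 (adjusted p = 0.52). Without the arrays of replicate 2 it was 0.75 (adjusted p = 0.048), and without LPS+cordycepin replicate 2 alone 0.80 (adjusted p = 0.027).

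The Itgam probe with no shared run, A_55_P1977929, read 8.58, 8.72, 8.28 and 8.52 in LPS+DMSO and 8.95, 8.98, 8.94 and 9.98 in LPS+cordycepin. These groups did not overlap, with replicate 4 far above the others of its group. Its log2 change was 0.69 (SE 0.23, limma adjusted p = 0.047 over 21597 probes). It passed without 5 of the 16 arrays in turn and not without the other 11. Without LPS+cordycepin replicate 4 the change was 0.44 (adjusted p = 0.13), and with the replicate block the adjusted p was 0.0504. The third probe, well above background on 12 of 16 arrays, read 5.52 ± 1.17 in LPS+DMSO (3 of 4 arrays well above background) and 6.11 ± 0.05 in LPS+cordycepin (3 of 4).

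Cordycepin without LPS gave Itgam log2 changes of 0.27 on the probe with the CA run and 0.54 on A_55_P1977929, with limma adjusted p-values over probes of 0.54 and 0.13. LPS alone gave -0.19 and 0.24, values that differ in sign between the probes, each with a 95% interval that spanned both signs. The third probe entered the tests only through cordycepin, where it read 6.08 ± 0.40 (4 of 4 arrays well above background), beside 5.38 ± 0.56 in DMSO (2 of 4). The interaction was 0.33 on the probe with the CA run (95% interval -0.41 to 1.07, limma adjusted p = 0.93).

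Msr1, the class A scavenger receptor for modified lipoproteins, read 10.80, 10.35, 10.77 and 10.60 in DMSO (mean 10.63 ± 0.21, SD, n = 4) and 11.17, 11.02, 11.01 and 10.82 in LPS+DMSO (mean 11.00 ± 0.14). The groups did not overlap, with 10.80 and 10.82 as their nearest arrays. The log2 change of 0.37 (95% interval 0.04 to 0.70) had a limma adjusted p of 0.13. Leaving out LPS+cordycepin replicate 2, which is in neither group but bears on the shared spread, brought it to 0.049. The other Msr1 probe gave 0.27 (adjusted p = 0.29 over probes).

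On the brighter Msr1 probe the LPS+cordycepin arrays spread most, from 10.36 to 11.27, and on the other probe the DMSO arrays did, from 9.60 to 10.43. On the brighter probe the change against LPS+DMSO was -0.22 (95% interval -0.55 to 0.11) and the interaction -0.45 (95% interval -0.92 to 0.02, limma adjusted p = 0.68).

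The lysozyme genes were among the steadiest of the 7. Lyz1 ranged from 14.93 to 15.62 and Lyz2 from 13.60 to 14.39 over all 16 arrays, and in no comparison of conditions did their groups separate. Their log2 changes in the 4 comparisons ran from -0.20 to 0.17 for Lyz1 and from -0.23 to 0.16 for Lyz2. The widest of the 95% intervals among these reached -0.51 for Lyz1, in LPS+cordycepin against cordycepin, and all others lay within that size. Lyz1 was lower in LPS+cordycepin than in cordycepin on 4 of 4 days, and Lyz2 on 3 of 4, without passing (limma adjusted p = 0.55 and 0.37).

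Cd68, the lysosomal membrane protein used to stain tissue macrophages, ranged from 16.09 to 17.06 on its brighter probe. No comparison passed, and the log2 changes ran from -0.05 to 0.23 over the 4 comparisons of conditions. The cordycepin arrays agreed closely (16.37, 16.37, 16.39 and 16.44), while LPS+cordycepin held the highest value, 17.06 in replicate 4, and 1 of the lowest, 16.23 in replicate 2. The other Cd68 probe read 12.58, 12.96, 12.65 and 13.17 in DMSO and 13.08, 13.38, 13.29 and 13.23 in cordycepin. There cordycepin was higher on 4 of 4 days with a log2 change of 0.40 (95% interval 0.08 to 0.73, adjusted p = 0.091 over probes), against -0.05 on the brighter probe. The brighter probe's 95% interval, -0.40 to 0.29, spanned both signs, so a difference in sign between the probes is not established. The other probe shared a run of 16 bases with 1 probe of another gene.

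**Figure D3:**
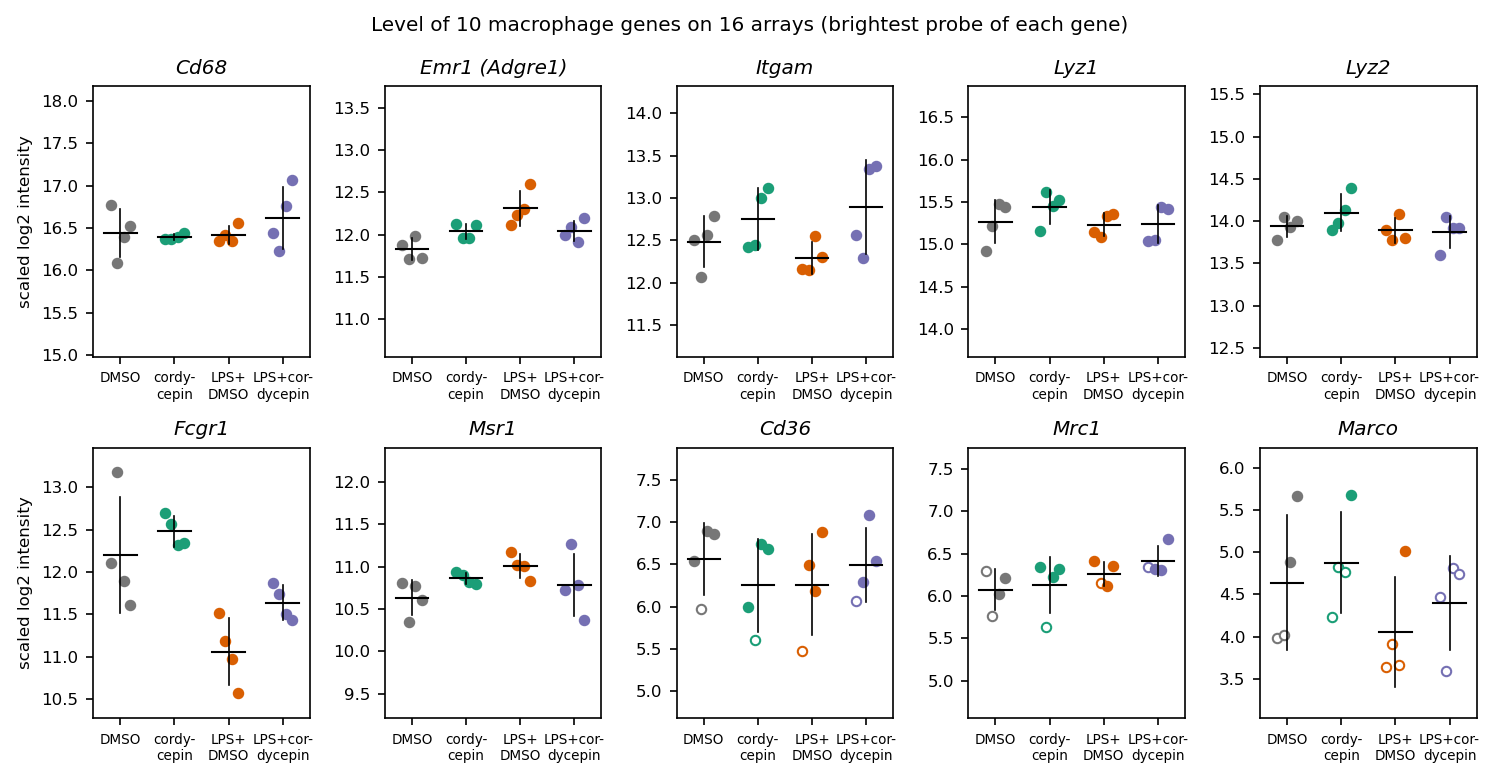
Scaled log2 intensity of the brightest probe of each of the 10 genes on every array, by condition, with the mean and SD of 4 arrays as bars and all panels spanning 3.2 log2 units. Open points are arrays where the probe was not well above background: 4 of 16 for Cd36, 5 for Mrc1 and 12 for Marco.

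The remaining pattern recognition and lipid receptors were close to the limit of the array. Cd36, the class B scavenger receptor for fatty acids and oxidised lipoproteins, was well above background on 12 of 16 arrays, with 3 of 4 in each condition. Its levels ran from 5.47 to 7.09, and each condition's range overlapped those of the others. It averaged 6.57 ± 0.42 (SD, n = 4) after DMSO, 6.25 ± 0.55 after cordycepin, 6.26 ± 0.60 with LPS+DMSO and 6.49 ± 0.44 with LPS+cordycepin. Mrc1, the mannose receptor of alternatively activated macrophages, was well above background on 11 of 16 arrays, with levels from 5.64 to 6.67. Its means, in the same order of conditions, were 6.07 ± 0.24, 6.13 ± 0.33, 6.26 ± 0.14 and 6.41 ± 0.18, and the groups overlapped in all 4 comparisons. Marco, the class A receptor for bacteria and particles, was well above background on 4 of 16, namely on 2 DMSO arrays, 1 cordycepin array, 1 LPS+DMSO array and 0 LPS+cordycepin arrays. Its levels ran from 3.60 to 5.67 and overlapped between the conditions.

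Detection of these 3 genes moved with the slide. On the slide of replicates 3 and 4, Cd36 and Mrc1 were well above background on 8 of 8 arrays and Marco on 4 of 8. On the other slide the counts were 4, 3 and 0 of 8. The part of the slide in these counts was not tested apart from the days, since each day lay on 1 slide. No fold bound could be given for Marco in LPS+cordycepin, since the lowest signal well above background there exceeded the Marco means of cordycepin and of LPS+DMSO.

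Replicate spread set how small a change could pass. The residual SD was 0.14 for Emr1, 0.17 for Lyz2, 0.21 for Lyz1, 0.23 for Msr1 and 0.24 for Cd68, and it was 0.38 for Itgam and 0.42 for Fcgr1, where the median over all genes was 0.20. In this fit without a block, Fcgr1 had more spread than Emr1, at 87.9 against 23.4 as percentiles of all genes. That spread holds day and slide differences as well. With the replicate block, the SE of a change went from 0.27 to 0.20 for Fcgr1 and from 0.25 to 0.14 for Itgam. That of Emr1 stayed at 0.11.

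The genes whose levels followed Emr1 most closely over the 16 arrays were Wdr1 (Pearson r = 0.88) and Clic4 (r = 0.85). Those closest to Fcgr1 were Prrg2 (r = 0.94) and Arpc5l (r = 0.93). These are descriptions over 16 arrays that share conditions, days and slides. Prrg2 averaged 10.52 without treatment, 10.55 under cordycepin alone, 10.18 after LPS and 10.33 after both.

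Genes related to these 10 were read from 6 lists, described by counts and medians. Over all genes 14.9% passed for LPS, 15.8% for cordycepin and 19.2% for LPS+cordycepin against LPS+DMSO. The difference of a list from these shares was not tested. Of 24 other macrophage and myeloid markers, 22 were tested, and LPS raised 2, Cd14, the LPS co-receptor, by 1.12 (SE 0.11, limma adjusted p = 4.4e-06) and Cebpb, a transcription factor of myeloid cells, by 0.64 (SE 0.14). Under cordycepin, Cebpb fell by 0.73 without LPS and by 0.84 with it (log2, SE 0.14 for each), and Cd14 fell by 0.44 with LPS (SE 0.11). The median change of the list was 0.04 for LPS, 0.07 for cordycepin and -0.03 for LPS+cordycepin against LPS+DMSO, beside -0.04, 0.04 and 0.03 over all genes.

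Of 8 Fc receptor genes other than Fcgr1, 5 were tested. LPS lowered 1, Fcgr4, which encodes another IgG receptor, with a log2 change of -0.45 (SE 0.14, limma adjusted p = 0.037), and the list's median was -0.12. By limma, 0 of the 5 passed for cordycepin without LPS (1 at an unadjusted p under 0.05) and 0 with LPS (0 unadjusted). The Fcgr4 call held in 19 of 38 alternatives. Of 11 leukocyte integrin genes, 10 were tested, and cordycepin without LPS raised Itgax (CD11c) by 0.42 (SE 0.13) and lowered Itgb3, an integrin chain, with a change of -0.54 (SE 0.16), and each of these calls held in 20 of 38 alternatives. LPS changed 0 of the 10 by limma (1 at an unadjusted p under 0.05), and cordycepin with LPS changed 0 (0 unadjusted). For both lists, the shares of all genes that passed were 14.9% for LPS, 15.8% for cordycepin and 19.2% for cordycepin with LPS.

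Of 22 other scavenger receptor genes, 9 were tested, and only Ager, a receptor for glycated proteins, had an adjusted p under 0.05 in a cordycepin comparison. It entered the tests through the cordycepin group, where it was bright, so its call is no support for the list. Its probe was well above background on 0 of 4 arrays of DMSO and of LPS+DMSO, on 4 of 4 of cordycepin and on 2 of 4 of LPS+cordycepin. It was at least 1.72-fold brighter in cordycepin than in DMSO. The same estimate was 1.22-fold for LPS+cordycepin against LPS+DMSO. It is no bound there, since only 2 of 4 LPS+cordycepin arrays were well above background and the mean of all 4 was used. Both estimates set the probe on each array of the dim group at that array's lowest signal well above background, or at its own signal where that was higher. LPS changed 0 of the 9 by limma (1 at an unadjusted p under 0.05). Of all genes, 14.9% passed for LPS, 15.8% for cordycepin and 19.2% for cordycepin with LPS. Scarb1, Scarb2, Colec12, Stab1, Cxcl16, Lrp1 and Clec7a were well above background on all 16 arrays and did not pass in any of the 3 comparisons.

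All 27 lysosome and phagosome genes were tested. LPS lowered 1, Lipa, the lysosomal acid lipase, with a log2 change of -0.49 (SE 0.10), and cordycepin without LPS raised 1, Gusb, a lysosomal glucuronidase, by 0.32 (SE 0.08). The Gusb call held in 24 of 38 alternatives. With LPS present, cordycepin changed 0 of the 27 by limma (1 at an unadjusted p under 0.05). The medians were -0.08 for LPS, 0.01 for cordycepin and 0.05 for cordycepin with LPS, beside -0.04, 0.04 and 0.03 over all genes. Over all genes 14.9%, 15.8% and 19.2% passed in these comparisons, and the difference of the list from them was not tested.

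Among 17 lipid handling genes that work beside Cd36, all tested, LPS lowered Soat1 and Nceh1, which make and hydrolyse cholesterol esters, with changes of -0.49 (SE 0.15) and -0.26 (SE 0.08). The Soat1 call held in 22 of 38 alternatives. The Nceh1 value did not pass with the replicate block (limma adjusted p = 0.060). Cordycepin raised Apoe, a lipoprotein that exports cholesterol, by 1.85 (SE 0.15) without LPS and 1.51 (SE 0.15) with it. Pparg, a lipid-sensing nuclear receptor, entered the tests only through cordycepin and is described by its means, 6.17 after DMSO (2 of 4 arrays well above background), 6.68 after cordycepin (4 of 4), 6.13 with LPS+DMSO (3 of 4) and 6.76 with LPS+cordycepin (3 of 4). The list's median change was -0.04, 0.09 and 0.05 in the 3 comparisons, where 14.9%, 15.8% and 19.2% of all genes passed.

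**Figure D4:**
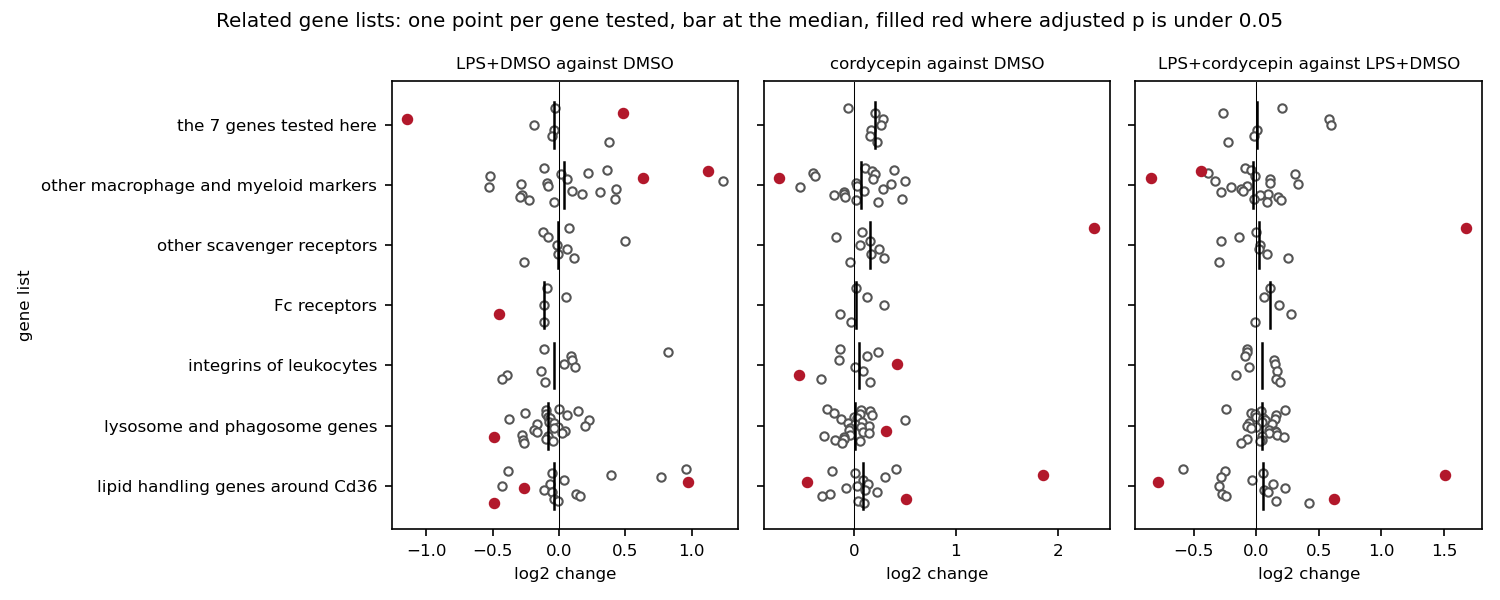
Log2 change (horizontal axis) of every gene tested in the 6 related lists and of the 7 genes described here (rows), in 3 comparisons (panels). Each point is a gene, filled red where its adjusted p is under 0.05, and the bar is the list's median. The list medians lie near 0, and the largest measured change under cordycepin is that of Apoe (1.85), since the Ager point rests on DMSO arrays not well above background.

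Markers of other cell types moved with LPS+cordycepin in a few cases. Of all genes, 19.2% passed in LPS+cordycepin against LPS+DMSO. Of the 6 B cell genes, Cd22, measured well above background on all arrays, was higher in LPS+cordycepin than in LPS+DMSO by 0.82 (SE 0.24, limma adjusted p = 0.023). The Cd22 call held in 25 of 38 alternatives. Cd79a and Cd79b, chains of the B cell receptor, entered the tests only through LPS+cordycepin, where they were bright, so their values are a description. The Cd79a mean was 6.32 with LPS+DMSO (3 of 4 arrays well above background) and 8.96 with LPS+cordycepin (4 of 4), and the Cd79b mean was 4.99 (2 of 4) and 6.75 (4 of 4). The log2 of the list's summed intensity was 9.15 to 9.70 in DMSO, 9.60 to 10.14 in cordycepin, 9.30 to 9.58 in LPS+DMSO and 10.09 to 11.31 in LPS+cordycepin. In such a sum the brightest probes weigh most, so a change of a dim probe may not show. Ms4a1, which encodes the B cell surface protein CD20, was well above background on no array. Mpo, a granule enzyme of neutrophil precursors, likewise entered the tests through the cordycepin groups. Its mean was 5.02 after DMSO (2 of 4 arrays well above background), 7.04 after cordycepin (4 of 4), 5.79 with LPS+DMSO (3 of 4) and 9.77 with LPS+cordycepin (4 of 4). The neutrophil list's sum ran from 15.76 to 16.13 in DMSO, 15.79 to 16.26 in cordycepin, 15.50 to 15.90 in LPS+DMSO and 15.83 to 16.17 in LPS+cordycepin. Of the T cell genes, Lck rose by 0.63 in LPS+cordycepin against LPS+DMSO (SE 0.21), with the list's sum at 12.00 to 12.79 in DMSO, 12.30 to 12.44 in cordycepin, 11.87 to 12.10 in LPS+DMSO and 12.19 to 12.76 in LPS+cordycepin. The part of these genes in the Itgam, Fcgr1 and Emr1 values was not tested.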

How the data were processed

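The intensity of each spot was read from the array scan by the authors with Agilent Feature Extraction, which subtracted the background, and 1 such file per array was deposited. The version was 10.7.3.1 in the file headers and 10.10.1.1 in the submitters' processing notes, and the design's build was mm9. They also deposited a table of 25775 rows of log2 values, whose normalization is not given in the sources used here. Starting from the processed intensity, log2 values of repeat spots were averaged after leaving out spots marked as outliers (108 to 237 per array), and arrays were aligned at the 75th percentile of the 18063 probes that all 16 arrays measured well above background. No spot was saturated. A probe entered the tests if some condition had it well above background on each of its 4 arrays (21597 probes), and the brightest stood for a gene (15877 gene names). Names came through RefSeq where a match was found. On the whole array 24303 probes had no match and kept the array's own name, so the 15877 were not restricted to RefSeq genes. limma 3.58.1 in R 4.3.3 fitted the 4 condition means to all 16 arrays, with Benjamini-Hochberg adjustment over all genes. Values over probes used the same fit on all 21597 probes. Fits were tested on simulated data with log2 changes set into LPS+DMSO. Of 100 changes of 0.5, 37 were recovered, and of 100 changes of 1, 73 were, in a set of 15802 genes. A gene that did not pass may therefore still have changed. In the data, 14.9% of all genes passed for LPS, a larger share than was changed in the simulation. Recovery at that larger share was not tested. Python 3.11.15 searched sequences.

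The labels give each replicate number its own collection day, so the numbers pair the samples. Deviations from the condition means correlated by 0.20 on average between arrays of the same number (-0.06 to 0.44, over 0.1 in 20 of 24 pairs), by 0.18 between other numbers on the same slide and by -0.19 between slides. Replicate and slide blocks, single slides, other scalings, background corrections, filters and probe rules, left-out arrays and the deposited log2 values were alternatives.

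The members, lists, tests and alternatives were chosen with earlier results of these data known. All members and their probes are named, with up to 3 genes of largest change past the test from each list in each of 3 comparisons, the 2 genes most like each member that passed, and Tnf, except for a few list genes that are not reported here. The counts over probes were added after seeing the data. The number of arrays limits the precision.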

Additional observations from a re-analysis of the deposited data

Results flagged for a closer look

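Of 60 groups of 4 arrays (15 probes in 4 conditions), 3 held an array set apart from the others by Dixon's criterion, where chance alone gives about 1 in 20, that is 3 of 60. The Itgam probe A_55_P1977929 read 9.98 in LPS+cordycepin replicate 4, where the nearest of the other arrays read 8.98. This is the array without which that probe's difference from LPS+DMSO was 0.44 with a limma adjusted p of 0.13, in place of 0.69. Mrc1 read 5.64 in cordycepin replicate 2, an array on which it was not well above background, with 6.22 as the nearest value. Mrc1 also read 6.67 in LPS+cordycepin replicate 4, with 6.34 as the nearest. The cause was not tested for any of them.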

How the results depend on the processing

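The number of genes past the test after LPS, 2 of 7, was 1 with scaling to spiked-in control probes, on slide 1 alone, with only the 2 groups compared and with a 2-fold minimum, was 0 on slide 2 alone, and ran from 1 to 3 when arrays were left out. For LPS+cordycepin against LPS+DMSO, 0 became 1 with the 75th percentile over all probes (Emr1, -0.39), with the mean of a gene's probes (Itgam, 0.63) and with the replicate block (Itgam), and 2 with the slide as a block and on slide 1 alone (Itgam and Fcgr1 in both), and ran from 0 to 1 when arrays were left out. For LPS+cordycepin against cordycepin, 0 became 1 (Fcgr1) with the replicate block, the slide as a block, slide 1 alone and only the 2 groups compared, and ran from 0 to 1 when arrays were left out. For cordycepin against DMSO it ran from 0 to 1 when arrays were left out. No setting gave a call for the interaction. Among the 7 genes, the replicate block changed no other call. Fcgr1 was lower and Emr1 higher after LPS in all 18 settings and 20 fits without some arrays, from -1.33 to -0.81 and from 0.36 to 0.59. With spike-in scaling the median log2 change of all genes was -0.14 for LPS, -0.12 for LPS+cordycepin against LPS+DMSO and -0.36 for LPS+cordycepin against cordycepin, and the changes of the 7 genes are to be read relative to it. The 28 calls of list and marker genes kept their direction under every alternative that could test them, with 27 past the test under the replicate block and 8 under spike-in scaling. These counts include the calls of Ager, Pparg, Cd79a, Cd79b and Mpo, which entered the tests through groups where they were bright and are no support. With only probes well above background on all arrays, 19 calls could be tested and 19 passed. The call was lost in most alternatives for Nceh1 after LPS (held in 10 of 38) and for Lck (16 of 38). The cause of these differences was not tested. Counted as probes, 3 of 12 passed for LPS (14.4% of all probes) and 1 of 12 for LPS+cordycepin against LPS+DMSO (20.2% of all probes), a count chosen after seeing the data.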
